A study of Homo sapiens with 12 samples.

Results

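The androgen response genes described here are 36 genes that prostate cells are known to switch on in response to androgens. They were matched by gene symbol to the 63241 genes of the count tables, and all 36 were found. Of these, 35 had enough counts to be tested, and MAF, a transcription factor gene, did not. The list was chosen by name, and its direction in these libraries was known when it was chosen.

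RNA was measured by poly-A sequencing in the cell line MDA-PCa-2b, which was established from a human prostate cancer. The 12 libraries form 4 groups of 3: KDR (labelled as the rescue of the second DHODH knockdown), KD2 (the second DHODH knockdown), KD1 (the first) and NT, against which the others are set. All groups grew, per the labels, in BRFF-HPC1 medium with 20% fetal bovine serum, a rich medium whose hormone content the labels do not give, and no androgen or androgen blocker is named. The labels do not say what NT stands for, what kind of construct was used, how the rescue was made, whether a group is 1 clone or whether its libraries come from separate cultures. The p-values thus rest on the variation among these libraries, part of which may be technical. The growth protocol also names the sister line MDA-PCa-2a.

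Androgens such as testosterone act on genes through androgen response elements in DNA, which are inverted repeats with a short spacer. In the luminal cells of the prostate, and with the help of pioneer factors such as FOXA1, they switch on proteases and other proteins of the seminal fluid, membrane transporters, enzymes of lipid and sugar metabolism and regulators that feed back on the hormone response. Prostate-specific antigen, the product of KLK3, is the best known of these products. The glucocorticoid receptor (NR3C1) recognises much the same DNA element, so part of the list also answers to glucocorticoids in many tissues.

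The libraries held 23786288 to 38240369 counts. DHODH, the targeted gene, encodes a mitochondrial enzyme of pyrimidine synthesis. Its level was 18.9, 19.2 and 17.5 CPM (counts per 1e+06, scaled by the trimmed mean of M values) in KDR, 11.4, 13.0 and 14.9 CPM in KD2, 11.0, 10.4 and 9.63 CPM in KD1 and 9.19, 13.4 and 8.95 CPM in NT. The KDR libraries lay above all others, and neither knockdown label went with a lower DHODH level than NT. The log2 fold change was 0.31 in KD2 against NT (edgeR adjusted p = 0.0968) and -0.03 in KD1 against NT (edgeR adjusted p = 0.974). Every direction given for KD1, KD2 or KDR therefore belongs to the libraries carrying that label, since less DHODH RNA was not measured in either knockdown. NT replicate 2 stood apart from the other NT libraries: between-library variation (edgeR's biological coefficient) was 5.53% to 7.17% within KDR, KD2 and KD1, against 15.7% within NT and 8.56% once that library was left out. Results that turn on it are given with and without it. Luminal prostate markers summed to 5369 to 5454 CPM in KDR, 4313 to 4566 CPM in KD2 and 5148 to 5436 CPM in NT. Of these 8 markers 6 fell and 1 rose in KD2 against NT, and CDH1, the epithelial adhesion protein E-cadherin, fell most, with 257, 253 and 251 CPM in KDR, 25.6, 29.3 and 34.6 CPM in KD2, 312, 299 and 305 CPM in KD1 and 303, 328 and 283 CPM in NT. CDH1 was lower than NT by 3.36 on the log2 scale in KD2 and by 0.26 in KDR (edgeR adjusted p = 5.9e-19 and 0.00861), while the keratin gene KRT8 was lower by 0.36 and 0.38. In KDR against NT the 8 markers were split, with 3 higher and 4 lower. Over all genes tested, 17.8% rose and 18.2% fell in KD2 against NT, and 13% rose and 14.5% fell in KDR against NT. Whether these differences in luminal markers have a part in the levels of the androgen response genes was not tested. The 6 basal markers summed to 21.5 to 25.7 CPM in KDR, 28.1 to 31.3 CPM in KD2 and 29.8 to 32.6 CPM in NT, and 3 of them averaged under 1 CPM in each group, among them KRT5 and TP63 at 0.0832 CPM at most. Of the 4 tested, KRT14 rose and KRT15 fell in KD2 against NT, and KRT14 rose and DST fell in KDR against NT. Their part in the results was not tested.

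The DNA just before the start of KLK3 and KLK2 is shown because the androgen response element of these promoters is a textbook example and because these neighbours differed from each other in KDR. Sequences are RefSeq's for GRCh38.p14, given for the 250 bases before the start on the plus strand of chromosome 19, with the best match to the element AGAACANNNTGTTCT in capitals. The window of KLK3 is chr19:50854665-50854914 and that of KLK2 is chr19:50873189-50873438, inside the longer gene that the count tables' annotation gives KLK2.
KLK3: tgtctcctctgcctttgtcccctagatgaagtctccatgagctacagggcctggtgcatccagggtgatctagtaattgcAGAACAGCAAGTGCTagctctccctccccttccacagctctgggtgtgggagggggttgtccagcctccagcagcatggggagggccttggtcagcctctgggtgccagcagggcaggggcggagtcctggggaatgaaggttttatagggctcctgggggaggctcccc
KLK2: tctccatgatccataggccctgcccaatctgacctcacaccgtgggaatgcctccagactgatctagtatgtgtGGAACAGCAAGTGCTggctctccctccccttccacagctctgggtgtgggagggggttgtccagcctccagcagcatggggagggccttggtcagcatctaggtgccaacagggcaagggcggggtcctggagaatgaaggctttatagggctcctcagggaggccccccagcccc

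The KLK3 match begins 170 bases before the start and shares 10 of the 12 fixed letters of the element, and the KLK2 match begins 176 bases before its start and shares 9. The element is its own reverse complement, so 1 search covers both strands. RefSeq windows from 250 bases before to 50 bases after a start were at hand for 27 members, and not for TMPRSS2, ELL2, NDRG1, MSMB, ZBTB10, PLPP1, SORD, ZBTB16 and TPD52. At least 10 letters matched in 2 of the 27 members (7.41%), KLK3 and PMEPA1, against 475 of all 27305 genes (1.74%). At least 9 letters matched in 8 members (29.6%), against 3580 of all genes (13.1%), and some genes have several windows. Counted by window, 8 of 51 member windows (15.7%) and 10.8% of all 35116 windows did. The 8 sites are set below each other, with the letters that match the element in capitals and in the order of the list.
KLK3: AGAACAgcaaGTgCT
KLK2: gGAACAgcaaGTgCT
FKBP5: AGAAaAgcagGgTCT
TRPM8: AaAAtAccaTGTTCa
PMEPA1: tGAAgAatgTGTTCT
HPGD: AaAACAcaaTGaTaT
STK39: AGAACAgcgcGcgCT
LIFR: AaAACAcgtTGgcCT

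These 15-base sites lie at chr19:50854745-50854759 (KLK3), chr19:50873263-50873277 (KLK2), chr6:35728788-35728802 (FKBP5), chr2:233917179-233917193 (TRPM8), chr20:57710801-57710815 (PMEPA1), chr4:174522988-174523002 (HPGD), chr2:168247693-168247707 (STK39) and chr5:38557616-38557630 (LIFR). The sites of FKBP5, PMEPA1, HPGD, STK39 and LIFR are read on the minus strand. The 6-base arm AGAACA, on either strand, stood in the windows of 7 members (25.9%) and 17.5% of all genes. These matches describe letters in a short window, and binding was not measured here.

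Most androgen response genes were lower in the libraries labelled KD2 than in NT, most were higher in KDR than in KD2, and in KDR the list split into members above, below and near NT. Calls are those of edgeR's quasi-likelihood test with an adjusted p under 0.05 (Benjamini-Hochberg, over all 19373 genes tested). In KD2 against NT, 27 of the 35 members tested fell and 3 rose, where 18.2% of all genes tested fell and 17.8% rose. The median log2 fold change was -0.65 over the members and -0.0099 over all genes. In KDR against KD2, 26 members rose and 6 fell, where 15.3% of all genes rose and 17.1% fell, with a median of 0.59 over the members and 0.016 over all genes. In KDR against NT, 11 members rose and 12 fell, where 13% of all genes rose and 14.5% fell, with a median of -0.06 over the members and 0.0088 over all genes. The shares over all genes were not matched to the members for level. Among the 15521 genes with at least 1 CPM in 3 libraries, 3490 fell and 3323 rose in KD2 against NT. Because the comparisons share libraries, they are not independent of each other. In bulk RNA, fewer cells that express a gene and less RNA per cell cannot be told apart.

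**Figure D1:**
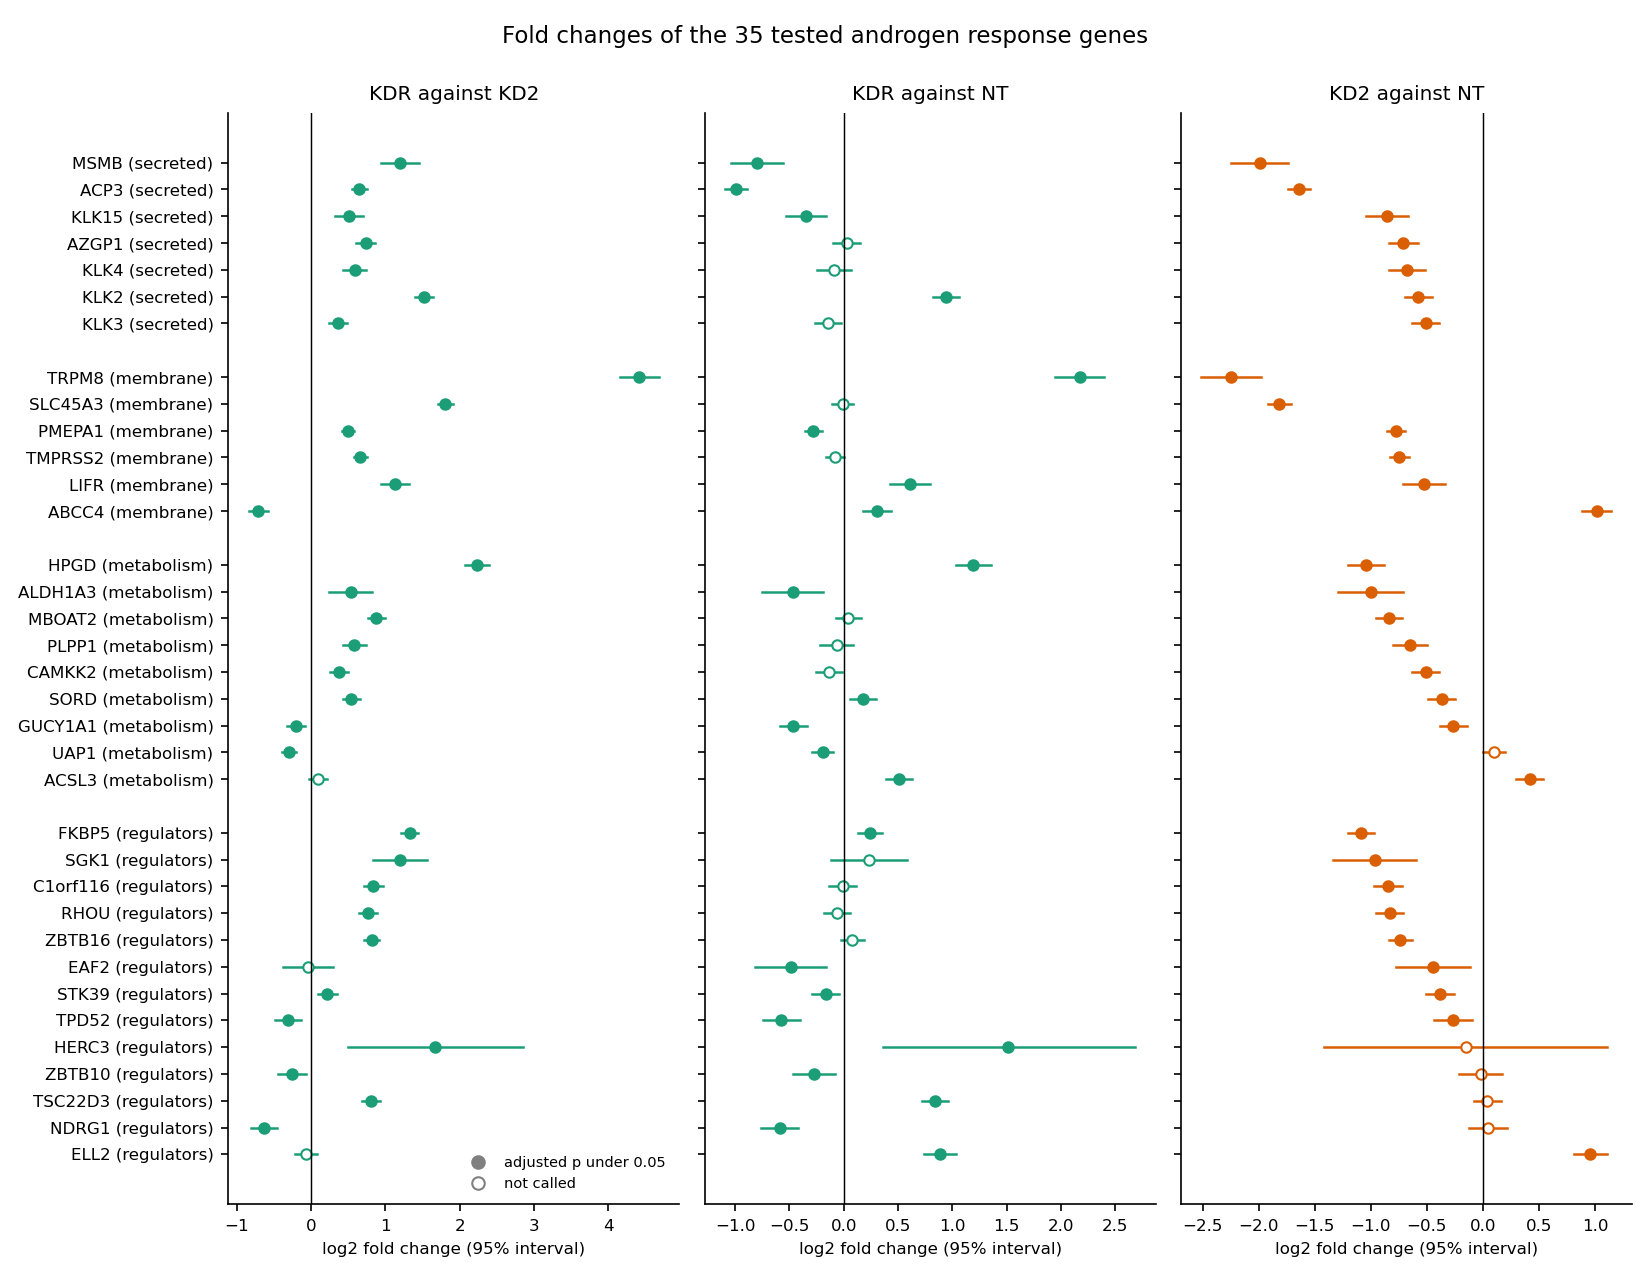
Log2 fold change with its 95% interval from edgeR for each of the 35 tested androgen response genes, grouped by role, in KDR against KD2, KDR against NT and KD2 against NT (filled points are called). In KD2 against NT 27 points lie called on the left, and in KDR against NT the called points lie on both sides of 0, from -0.99 for ACP3 to 2.17 for TRPM8.

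The members took 2.27% to 2.30% of all counts in KDR, 1.47% to 1.49% in KD2, 2.27% to 2.29% in KD1 and 2.26% to 2.44% in NT. The KD2 libraries thus lay below all others, and the KDR range lay inside that of NT. The highest NT share was that of NT replicate 2, and NT replicates 1 and 3 had 2.29% and 2.26%. Of this share KLK3 is the largest piece. Per kilobase of exon, KLK3 had the highest level of the members in every group, at 1744 CPM per kb in KDR, 1354 CPM per kb in KD2 and 1930.4 CPM per kb in NT, and ranked 10 among all tested genes in KDR, 13 in KD2 and 9 in NT. SLC45A3, TMPRSS2, PMEPA1 and AZGP1 followed in NT at 566, 482, 344 and 193 CPM per kb. SLC45A3 ranked 31 in KDR, 160 in KD2 and 30 in NT. In KDR, KLK2 was the fifth of the members at 239.5 CPM per kb, above AZGP1 at 196 CPM per kb, and in NT it was the seventh at 125 CPM per kb, below ACP3 at 145 CPM per kb. In the middle of the order PLPP1, CAMKK2 and GUCY1A1 lay at 31.9 to 32.9 CPM per kb in NT, closer to each other than their spread between libraries. TRPM8 had 11.5 CPM per kb in KDR, 0.533 in KD2 and 2.55 in NT, and ranked 4032, 14211 and 9581 in these groups. HERC3 and MAF were the lowest, at or below 0.149 CPM per kb in every group. Levels per kilobase use the full exon length, although reads in exons shared with other genes were not counted. The shared part is 69.5% in HERC3, 33.3% in ALDH1A3, 29.6% in PLPP1 and 25.0% in GUCY1A1, so their levels per kilobase may be too low. In CAMKK2 and MAF it is 0%.

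All 7 members that encode secreted proteins fell in KD2 and rose in KDR against KD2, and they ended on different sides of NT. For this and the other role groups, the shares over all genes are those given above. KLK3 (ENSG00000142515, chr19:50854915-50860764, GRCh38) encodes prostate-specific antigen, a protease that liquefies semen. Its level was 7942, 8223 and 8103 CPM in KDR, 6184, 6325 and 6335 CPM in KD2, 8474, 8158 and 8372 CPM in KD1 and 8462, 10360.4 and 8043 CPM in NT. The KD2 libraries were the lowest, and the KDR libraries overlapped those of NT. KLK3 fell by 0.51 in KD2 against NT (95% interval -0.63 to -0.39, edgeR adjusted p = 2.25e-07). In KDR against NT it had a log2 fold change of -0.15 (-0.27 to -0.03, edgeR adjusted p = 0.0631). That difference was called without NT replicate 1 (-0.19), without NT replicate 3 (-0.22) and with no filter on low counts (-0.14), while without NT replicate 2, the highest NT library, it was -0.04 and not called (edgeR adjusted p = 0.299).

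KLK2 (ENSG00000167751, chr19:50861568-50880567), the neighbour of KLK3, encodes a protease that cleaves the precursor of prostate-specific antigen. Its level was 1498, 1549.8 and 1516 CPM in KDR, 517, 542 and 538 CPM in KD2, 744, 724 and 724 CPM in KD1 and 732, 896 and 756 CPM in NT. Every KDR library lay above every other library, and every KD2 library below. KLK2 fell by 0.58 in KD2 against NT (-0.70 to -0.46, edgeR adjusted p = 2.95e-08) and rose by 0.94 in KDR against NT (0.82 to 1.06, edgeR adjusted p = 2.47e-11). Both genes were thus lower in KD2 by similar amounts, and in KDR they parted.

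The ratio of KLK2 to KLK3 counts within a library does not depend on how libraries are scaled. KLK2 counts were 18.9%, 18.8% and 18.7% of KLK3 counts in KDR, 8.36%, 8.57% and 8.49% in KD2, 8.77%, 8.87% and 8.65% in KD1 and 8.65%, 8.65% and 9.395% in NT. The KDR libraries stood apart and the other groups lay close together. The mean ratio was 18.8% ± 0.0792 in KDR and 8.90% ± 0.43 in NT (SD, n = 3 each), a log2 difference of 1.08 with an exact two-sided permutation p of 0.1, the smallest that 3 libraries against 3 can give. In KD2 against NT the log2 difference was -0.07 (exact permutation p = 0.1), with KD2 at 8.47% ± 0.107. KLK2 and KLK3 had already parted in KDR by their own values in these libraries, so the ratio test is no separate support. In the protein-coding GENCODE 29 transcripts these genes share no stretch of 100 bases and 11 stretches of 50 bases, 0.303% of those in KLK2 and 0.43% of those in KLK3. These transcripts may leave out exons of the longer KLK2 gene that was counted. Whether KLK2 counts hold reads from KLK3 was not tested.

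KLK4 and KLK15 lie in the same cluster, within 86107 bases with KLK2 and KLK3. KLK4, a protease also known from tooth enamel, had 139.6, 151 and 146 CPM in KDR, 90.3, 99.1 and 102 CPM in KD2 and 156, 175 and 134 CPM in NT. It fell by 0.68 in KD2 against NT, and in KDR its difference from NT was -0.09 (edgeR adjusted p = 0.417), which was -0.19 and called without NT replicate 3 and -0.0013 without NT replicate 2 (edgeR adjusted p = 0.989). KLK15, which can activate the precursor of prostate-specific antigen, had 23.7, 25.6 and 23.9 CPM in KDR, 17.4, 15.7 and 18.5 CPM in KD2 and 28.9, 32.7 and 31.5 CPM in NT. The KDR libraries of KLK15 lay between both other groups without overlap, and it was lower than NT by 0.85 in KD2 and by 0.35 in KDR on the log2 scale. Of the 4 kallikrein genes, KLK2 alone was called above NT in KDR.

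ACP3 (ENSG00000014257, chr3:132317369-132368302) encodes prostatic acid phosphatase, and MSMB (ENSG00000263639, chr10:46033307-46048180) encodes beta-microseminoprotein, a major protein of semen. ACP3 had 319.6, 307 and 309.9 CPM in KDR, 199, 196 and 203 CPM in KD2, 625, 626 and 641 CPM in KD1 and 625, 589.6 and 649 CPM in NT. MSMB had 12.9, 12.7 and 12.0 CPM in KDR, 5.85, 5.73 and 4.76 CPM in KD2, 21.5, 24.0 and 25.6 CPM in KD1 and 21.2, 24.7 and 19.4 CPM in NT. For both genes the KDR libraries lay between KD2 and NT with no overlap. ACP3 fell by 1.64 in KD2 (-1.74 to -1.54, edgeR adjusted p = 2.49e-17) and was still lower than NT by 0.99 in KDR (-1.09 to -0.89, edgeR adjusted p = 5.18e-13). MSMB fell by 1.99 in KD2 and by 0.80 in KDR against NT (edgeR adjusted p = 1.11e-11 and 1.17e-05). AZGP1, which encodes the secreted zinc-alpha glycoprotein, had 498 to 515 CPM in KDR, 287 to 318 CPM in KD2 and 462 to 559 CPM in NT. It fell by 0.71 in KD2, and its difference of 0.03 in KDR against NT was not called (-0.10 to 0.15); without NT replicate 2 it was 0.11 and called.

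**Figure D2:**
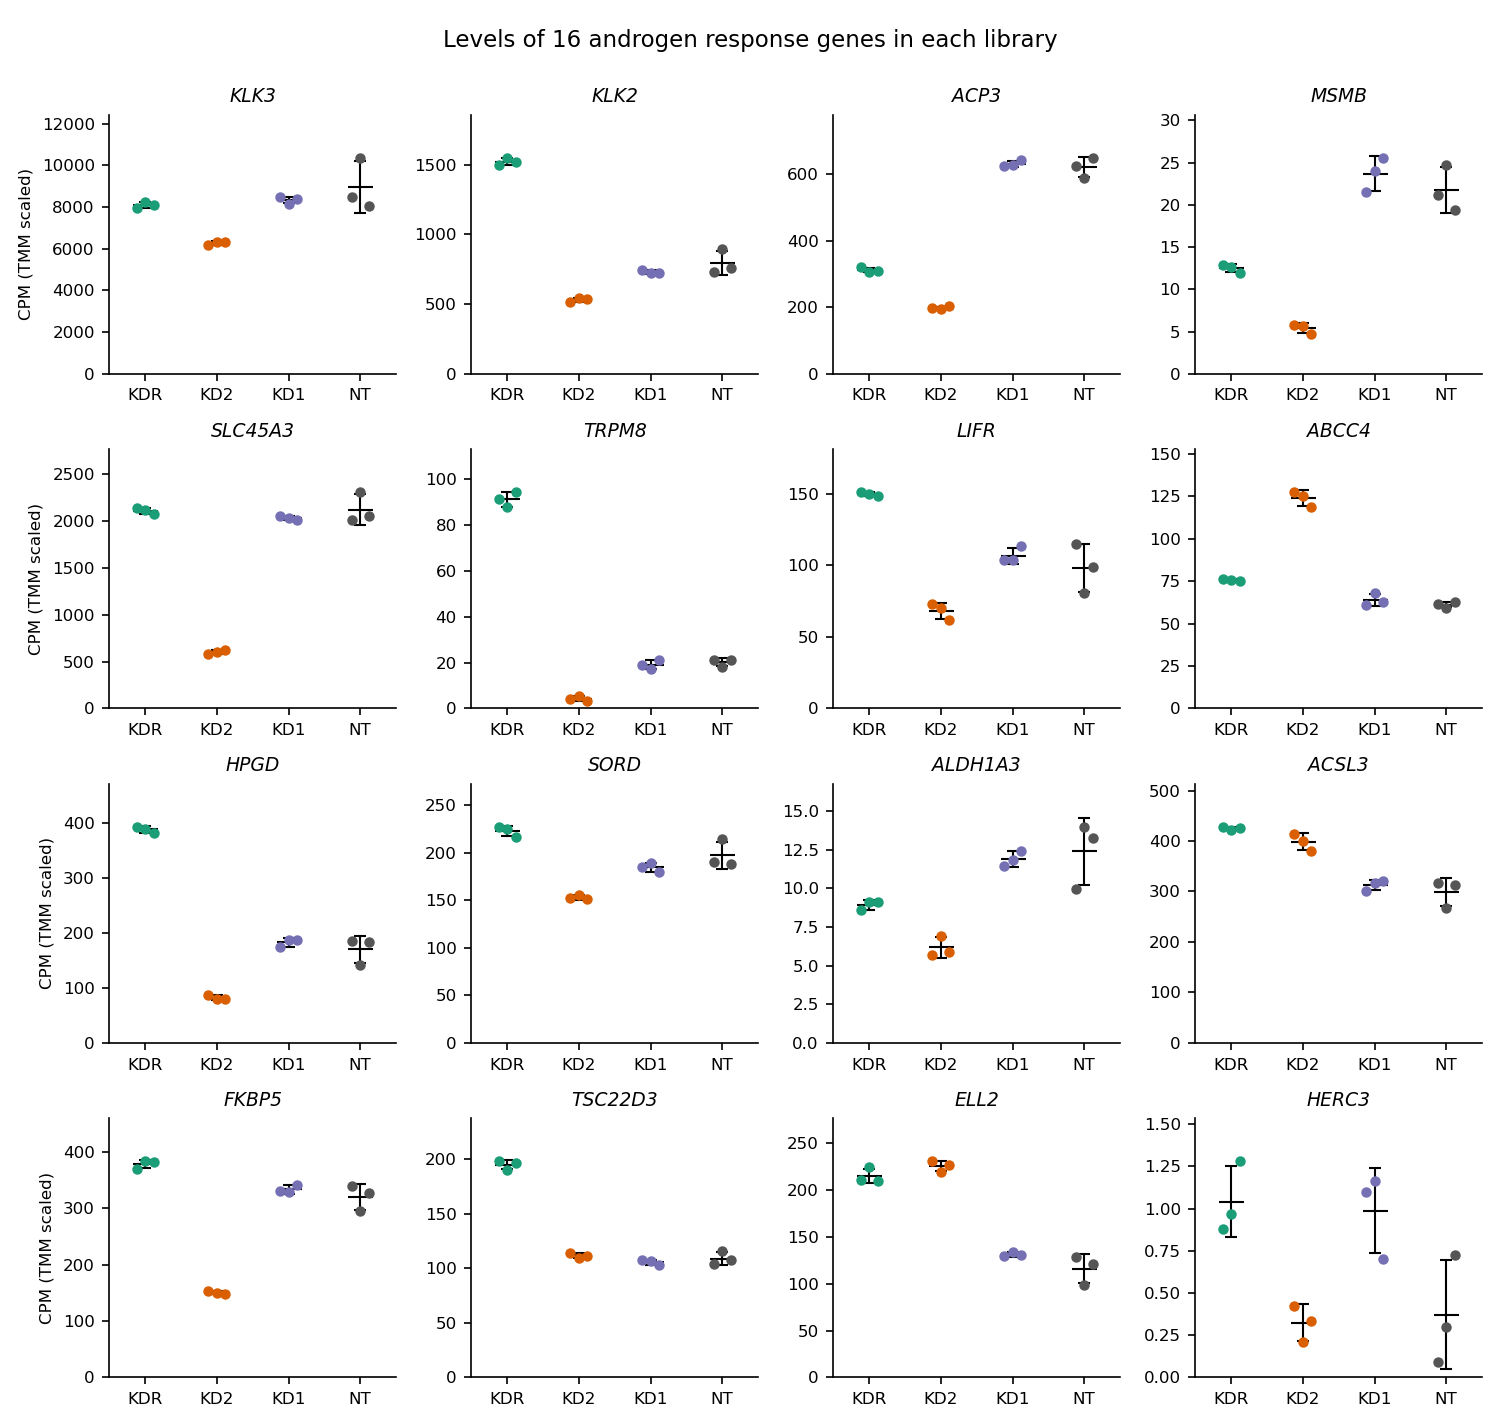
CPM of 16 androgen response genes in each library (points), with the mean and SD over the 3 libraries of a group (black), for KDR, KD2, KD1 and NT; each panel has its own axis from 0. TRPM8 reached 87.7 to 94.2 CPM in KDR and 3.21 to 5.21 CPM in KD2, and ACP3 in KDR lay between KD2 and NT. SLC45A3 in KDR lay within the NT range, with only NT replicate 2 above it.

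Among the 6 membrane proteins 5 fell in KD2 and ABCC4 rose, and all 6 moved the other way in KDR against KD2. TRPM8 (ENSG00000144481, chr2:233917373-234019522) encodes a cold-sensing cation channel that is abundant in the prostate. It had 91.3, 87.7 and 94.2 CPM in KDR, 4.26, 5.21 and 3.21 CPM in KD2, 19.0, 17.1 and 21.2 CPM in KD1 and 21.2, 18.2 and 21.3 CPM in NT. The KDR libraries lay far above every other library and the KD2 libraries far below. TRPM8 fell by 2.25 in KD2 against NT (-2.51 to -1.98, edgeR adjusted p = 2.65e-12). It was 21.3-fold higher in KDR than in KD2 (log2 4.42, edgeR adjusted p = 8.89e-18) and 4.50-fold higher than in NT (log2 2.17, 1.95 to 2.39, edgeR adjusted p = 6.01e-13). It had the largest fall in KD2 and the largest rise in both KDR comparisons of all members tested.

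SLC45A3 (ENSG00000158715, chr1:205657851-205680509), or prostein, is a transporter and a common fusion partner in prostate cancer. It had 2140.5, 2117 and 2077 CPM in KDR, 584, 605 and 619.5 CPM in KD2, 2053, 2030.2 and 2012 CPM in KD1 and 2008, 2309.9 and 2058 CPM in NT. Its KD2 libraries lay far below all others. Its KDR libraries lay within the NT range, but only NT replicate 2 lay above them. SLC45A3 fell by 1.82 in KD2 (-1.92 to -1.72, edgeR adjusted p = 2.94e-18), and KDR differed from NT by -0.0093 (-0.11 to 0.09, edgeR adjusted p = 0.911).

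TMPRSS2, a membrane serine protease whose promoter is often fused to ETS genes in prostate cancer, had 2990.2 to 3028 CPM in KDR, 1857 to 1932 CPM in KD2 and 3059 to 3384 CPM in NT. It fell by 0.75 in KD2, and in KDR its difference from NT was -0.08 (edgeR adjusted p = 0.146) with no overlap between groups; without NT replicate 3 it was -0.11 and called, and without NT replicate 2 it was -0.04 and not called. PMEPA1, which restrains TGF-beta signalling, had 1602 to 1643 CPM in KDR, 1136 to 1178 CPM in KD2 and 1955 to 1993 CPM in NT, and was lower than NT by 0.77 in KD2 and 0.28 in KDR. LIFR, the receptor of leukaemia inhibitory factor, had 151, 150.1 and 148 CPM in KDR, 72.6, 70.1 and 62.0 CPM in KD2, 103, 103 and 113 CPM in KD1 and 115, 80.9 and 99.0 CPM in NT. Its KDR libraries lay above all others, and it fell by 0.52 in KD2 and rose by 0.61 in KDR against NT (edgeR adjusted p = 7.11e-05 and 1.6e-05).

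ABCC4 (ENSG00000125257, chr13:95019835-95301475) encodes an efflux pump for organic anions and cyclic nucleotides. It had 76.1, 75.8 and 75.0 CPM in KDR, 127, 125 and 118 CPM in KD2, 60.8, 67.9 and 62.8 CPM in KD1 and 61.6, 59.4 and 62.6 CPM in NT. Its KD2 libraries were the highest and its KDR libraries lay between KD2 and NT. ABCC4 rose by 1.02 in KD2 against NT (0.88 to 1.15, edgeR adjusted p = 1.27e-11) and stayed above NT by 0.31 in KDR (edgeR adjusted p = 0.00079).

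The 9 metabolic members were split: 7 fell in KD2, ACSL3 rose and UAP1 was not called, and in KDR 3 ended above NT and 3 below. HPGD (ENSG00000164120, chr4:174490175-174523154) inactivates prostaglandins. It had 393, 389 and 382 CPM in KDR, 87.4, 80.7 and 79.0 CPM in KD2, 174, 188 and 187 CPM in KD1 and 185, 141 and 183 CPM in NT. Every KDR library lay above every NT library and every KD2 library below, with KD1 overlapping NT. HPGD fell by 1.04 in KD2 against NT (edgeR adjusted p = 2.9e-10) and rose by 1.19 in KDR against NT (1.03 to 1.35, edgeR adjusted p = 5.23e-11).

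SORD, or sorbitol dehydrogenase, had 227, 225 and 217 CPM in KDR, 152, 156 and 151 CPM in KD2, 185, 189.6 and 179 CPM in KD1 and 190.1, 214 and 188 CPM in NT. Its KDR libraries lay just above NT. SORD fell by 0.37 in KD2 and rose by 0.18 in KDR against NT (edgeR adjusted p = 0.0235), a call that ended without NT replicate 1 (0.15), NT replicate 3 (0.14), KDR replicate 1 (0.16) or KDR replicate 2 (0.17). The call for SORD also ended in a fit of only the groups compared (0.17). ALDH1A3, which makes retinoic acid, had 8.57, 9.12 and 9.14 CPM in KDR, 5.70, 6.94 and 5.89 CPM in KD2, 11.4, 11.9 and 12.4 CPM in KD1 and 9.94, 14.0 and 13.3 CPM in NT. Its KDR libraries lay between KD2 and NT. ALDH1A3 fell by 1.00 in KD2 and by 0.47 in KDR against NT (edgeR adjusted p = 4.4e-06 and 0.0116), and the second call ended without KDR replicate 1 (-0.44). Of its exon length 33.3% is shared with overlapping genes, and reads there were not counted.

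ACSL3, an acyl-CoA synthetase that activates fatty acids, had 428, 422 and 425 CPM in KDR, 415, 400.1 and 381 CPM in KD2, 301, 316 and 321 CPM in KD1 and 317, 267 and 313 CPM in NT. Both KDR and KD2 libraries lay above all NT and KD1 libraries. ACSL3 rose by 0.42 in KD2 and by 0.51 in KDR against NT (edgeR adjusted p = 6.21e-06 and 6.93e-07). Its difference of 0.09 in KDR against KD2 was not called (edgeR adjusted p = 0.247) and was called at 0.09 without NT replicate 2 or in a fit of only those groups.

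MBOAT2, which remodels phospholipids, PLPP1, a lipid phosphatase, and CAMKK2, a kinase that activates AMPK, were lower than NT in KD2 by 0.84, 0.65 and 0.51 on the log2 scale and rose in KDR against KD2 by 0.88, 0.58 and 0.38. Their differences in KDR against NT were 0.04, -0.07 and -0.13 with no call. Without NT replicate 2 the value for MBOAT2 was -0.04, also with no call. For CAMKK2 the difference was called without NT replicate 1 (-0.17) and was -0.09 with no call without NT replicate 2, and its KDR libraries, at 211 to 218 CPM, lay below all NT libraries, at 224 to 253 CPM. GUCY1A1, a subunit of the nitric oxide receptor, had 239 to 246 CPM in KDR, 273 to 287 CPM in KD2 and 297 to 359.9 CPM in NT. It fell by 0.26 in KD2 against NT and by a further 0.20 in KDR against KD2, and the second call ended without KD2 replicate 1 (-0.18), with upper quartile scaling (-0.15) and with total counts only (-0.15). UAP1, an enzyme of sugar nucleotide synthesis, had 361 to 381 CPM in KDR, 442 to 459.7 CPM in KD2 and 416 to 426 CPM in NT. UAP1 had a log2 fold change of 0.10 in KD2 against NT (edgeR adjusted p = 0.0978), which was called with DESeq2 (adjusted p = 0.0455) and in edgeR without NT replicate 2 (adjusted p = 0.0327). It fell by 0.19 in KDR against NT.

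Of the 13 tested members that encode signalling and gene regulators, 8 fell in KD2, ELL2 rose and 4 were not called. FKBP5 (ENSG00000096060, chr6:35573585-35728583) encodes a co-chaperone of steroid receptors and is induced by androgens and glucocorticoids. It had 370.2, 383 and 382 CPM in KDR, 153, 149.9 and 148 CPM in KD2, 329.8, 328 and 341 CPM in KD1 and 339.5, 295 and 326 CPM in NT. Its KDR libraries were the highest and its KD2 libraries the lowest, without overlap. FKBP5 fell by 1.09 in KD2 (-1.20 to -0.97, edgeR adjusted p = 2.95e-13) and rose by 0.24 in KDR against NT (0.13 to 0.35, edgeR adjusted p = 0.00155).

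TSC22D3, which encodes the glucocorticoid-induced leucine zipper, had 198, 190.4 and 197 CPM in KDR, 114, 109.9 and 111.3 CPM in KD2, 107, 107 and 103 CPM in KD1 and 104, 116.1 and 107 CPM in NT. Only its KDR libraries stood apart from the other 9. TSC22D3 rose by 0.84 in KDR against NT (0.72 to 0.96, edgeR adjusted p = 1.68e-10), and its log2 fold change in KD2 was 0.04 (edgeR adjusted p = 0.674). ELL2, an elongation factor of RNA polymerase, had 211, 224 and 209.7 CPM in KDR, 231, 219 and 227 CPM in KD2, 129.9, 134 and 130.0 CPM in KD1 and 128, 98.8 and 121 CPM in NT. The KDR and KD2 libraries overlapped and lay above all others. ELL2 rose by 0.96 in KD2 and by 0.89 in KDR against NT (edgeR adjusted p = 2.97e-10 and 2.31e-09).

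SGK1, a kinase induced by serum and steroids, the transcriptional repressor ZBTB16, the small GTPase RHOU and C1orf116 were lower than NT in KD2. On the log2 scale they were lower by 0.97, 0.74, 0.83 and 0.85. They rose in KDR against KD2 by 1.19, 0.82, 0.77 and 0.84. In KDR against NT their log2 fold changes were 0.23, 0.08, -0.06 and -0.0099, with no call. The interval for SGK1 was the widest of these (-0.12 to 0.58), at 5.81 to 7.74 CPM in KDR, and without NT replicate 2 RHOU was called (-0.13) and C1orf116 was at 0.07 with no call.

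STK39, a kinase of ion transport, had 227 to 231 CPM in KDR, 188 to 204 CPM in KD2 and 230.3 to 273 CPM in NT. It fell by 0.38 in KD2 and by 0.17 in KDR against NT (edgeR adjusted p = 2.33e-05 and 0.045), and the second call ended in 16 of 20 alternatives, among them the omission of any 1 library other than NT replicate 2 (-0.12 to -0.17). Its rise of 0.22 in KDR against KD2 ended without KD2 replicate 3 (0.18). EAF2, a partner of the ELL elongation factors, had 4.44 to 6.44 CPM in KDR, 5.47 to 5.66 CPM in KD2 and 6.61 to 8.42 CPM in NT. It fell by 0.45 in KD2 and 0.49 in KDR against NT (edgeR adjusted p = 0.0302 and 0.0237), and both calls were fragile. Without NT replicate 1 they were -0.42 and -0.47, and without NT replicate 3 they were -0.37 and -0.42, uncalled each time. The KD2 call also ended without any 1 KD2 library (-0.43 to -0.45) and with no filter on low counts (-0.44). The KDR call also ended without KDR replicate 1 (-0.36) or 2 (-0.50) and in a fit of only the groups compared (-0.49).

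TPD52, a protein of vesicle traffic, had 453, 453 and 456 CPM in KDR, 602, 542 and 544 CPM in KD2 and 729, 538 and 761 CPM in NT, so that NT replicate 2 lay among the KD2 libraries. It fell by 0.27 in KD2 against NT (edgeR adjusted p = 0.0137), and by 0.41 without NT replicate 2. The call ended without NT replicate 1 (-0.21), NT replicate 3 (-0.17) or KD2 replicate 2 or 3 (-0.24 each), and in a fit of only the groups compared (-0.27). In KDR it fell by 0.31 against KD2 and by 0.57 against NT (edgeR adjusted p = 0.00545 and 1.2e-05). NDRG1, a stress-response gene, had 89.9 to 92.8 CPM in KDR, 137 to 145 CPM in KD2 and 114 to 161 CPM in NT. Its log2 fold change in KD2 was 0.04 (edgeR adjusted p = 0.733; 0.17 and called without NT replicate 2), and it fell by 0.59 in KDR against NT.

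ZBTB10, a zinc finger repressor, had 127 to 134 CPM in KDR, 153 to 161 CPM in KD2 and 173, 121 and 181 CPM in NT. It fell by 0.28 in KDR against NT (edgeR adjusted p = 0.0308), a call that ended without NT replicate 1 (-0.21), NT replicate 3 (-0.18) or any KDR library (-0.26 to -0.29), and was -0.45 without NT replicate 2. For ZBTB10 this call also ended in a fit of only the groups compared (-0.28), with upper quartile scaling (-0.25) and with total counts only (-0.26). In KD2 its log2 fold change was -0.02, and -0.18 with a call without NT replicate 2. Against KD2 it fell by 0.26 in KDR (edgeR adjusted p = 0.0396), a call lost in 11 of 20 alternatives, among them the omission of any KD2 or KDR library or of KD1 replicate 1 or 2 (-0.24 to -0.28). HERC3, a ubiquitin ligase, had 30, 30 and 35 counts in KDR, 15, 6 and 8 counts in KD2, 31, 28 and 27 counts in KD1 and 3, 9 and 19 counts in NT. Its levels were 0.877, 0.967 and 1.28 CPM in KDR, 0.426, 0.208 and 0.334 CPM in KD2, 1.10, 1.16 and 0.703 CPM in KD1 and 0.0932, 0.297 and 0.724 CPM in NT. Its rise of 1.51 in KDR against NT (edgeR adjusted p = 0.0472) was not called in 11 of 20 alternatives. It was 1.03 and 1.38 without NT replicate 1 or 2, 1.34 to 1.62 without any 1 KDR library, 1.51 without any 1 KD1 library or KD2 replicate 1 or 3, and 2.39 with a call without NT replicate 3. In KDR against KD2 HERC3 rose by 1.66 (edgeR adjusted p = 0.0262), a call lost without KD2 replicate 2 (1.42) or 3 (1.67) or KDR replicate 2 (1.71) or 3 (1.49). Of its exon length 69.5% is shared with another gene of the same symbol, which had no counts. MAF had 0 counts in KDR, 2 in KD2, 11 in KD1 and 23 in NT over the 3 libraries of each group, too few for a test.

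By these calls, the 27 members that fell in KD2 took different positions in KDR. These positions were not counted for the other genes that fell in KD2, so they are not shown to be particular to the list. KLK2, FKBP5, TRPM8, SORD, HPGD and LIFR, 6 in all, were above NT in KDR. A further 12 rose in KDR against KD2 and were not called against NT: KLK3, KLK4, AZGP1, TMPRSS2, SLC45A3, MBOAT2, PLPP1, CAMKK2, C1orf116, RHOU, SGK1 and ZBTB16. Their fold changes in KDR against NT ran from -0.15 to 0.23, and apart from SGK1 their 95% intervals lay within -0.27 and 0.18, which does not show that they are equal to NT. PMEPA1, ACP3, MSMB, ALDH1A3, STK39 and KLK15, 6 in all, rose in KDR against KD2 and stayed below NT. EAF2 stayed below NT with no call against KD2, and TPD52 and GUCY1A1 were lower in KDR than in KD2. Of the 3 that rose in KD2, ABCC4 came part of the way back and ACSL3 and ELL2 did not. HERC3 and TSC22D3 were above NT in KDR with no call in KD2, and NDRG1, ZBTB10 and UAP1 were below it.

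In the libraries labelled KD1 no member was called against NT, where 0% of all genes tested were called in either direction. DESeq2 called 0 members too. In edgeR 5 of the 35 members had an unadjusted p under 0.05, a larger share than the 1185 of all 19373 genes tested. The median log2 fold change of the members was -0.01. For 34 of the 35 members the 95% interval excluded a 2-fold change in either direction, the exception being HERC3. Leaving out HERC3, the fold changes ran from -0.23 for KLK15 to 0.18.

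NR3C1, the glucocorticoid receptor, had 37.9, 36.1 and 36.8 CPM in KDR, 33.5, 32.4 and 30.8 CPM in KD2 and 59.3, 38.7 and 53.9 CPM in NT. All KDR and KD2 libraries lay below NT, whose replicate 2 was the nearest to them. It fell by 0.65 in KD2 and by 0.46 in KDR against NT (edgeR adjusted p = 4.03e-05 and 0.00238), and its difference of 0.20 in KDR against KD2 was not called. HOXB13, a homeobox factor of the prostate, fell by 0.49 in KD2, and its difference of -0.07 in KDR against NT was not called. The pioneer factors FOXA1 and GATA2 rose by 0.17 and 0.67 in KD2 and by 0.19 and 0.42 in KDR against NT. The coactivator NCOA1 rose by 0.57 in KD2 and was not called in KDR against NT (0.13). These genes come from a list of 17 genes for steroid receptors and their partner factors. Of the 17, 9 rose and 3 fell in KD2 against NT, where 17.8% of all genes tested rose and 18.2% fell. In KDR against NT 4 rose and 1 fell, where 13% of all genes rose and 14.5% fell.

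**Figure D3:**
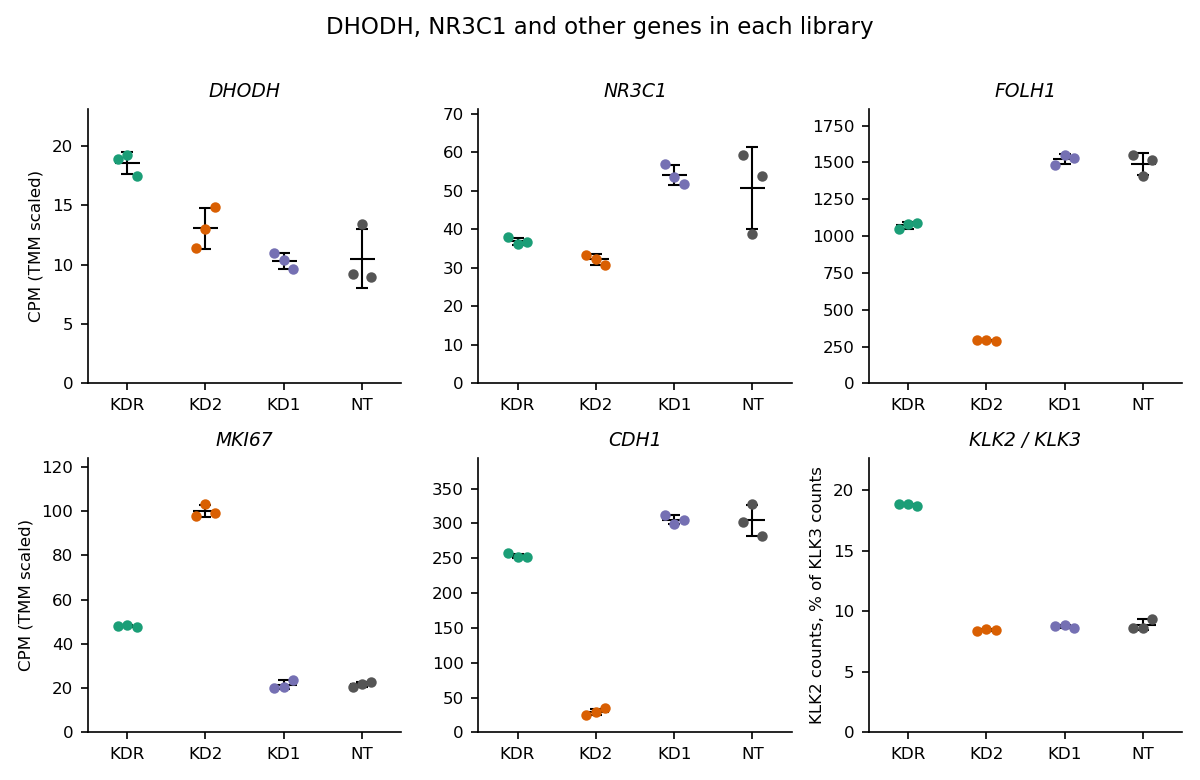
CPM of DHODH, NR3C1, FOLH1, MKI67 and CDH1 in each library, and KLK2 counts as a percentage of KLK3 counts (last panel), with the mean and SD over the 3 libraries of a group (black). CDH1 lay between 25.6 and 34.6 CPM in KD2 and at 251 CPM or more in every other library, and the KLK2 share was near 18.8% in KDR and 8.47% to 8.90% on average in the other groups.

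Other genes known to be induced by androgens were named from knowledge of the pathway and not by how they moved, though with results of these data known. Of 52 such genes, 27 fell (51.9%, against 18.2% of all genes tested) and 7 rose (13.5%, against 17.8%) in KD2, with a median log2 fold change of -0.24. In KDR against KD2 24 rose (46.2%, against 15.3%) and 10 fell (19.2%, against 17.1%). In KDR against NT 10 rose (19.2%, against 13%) and 13 fell (25%, against 14.5%), which is nearer to the shares over all genes. ABHD2, a lipid hydrolase, ADAMTS1, a matrix protease, the nicotinic receptor subunit CHRNA2 and the receptor BMPR1B fell in KD2 by 1.12, 1.64, 1.98 and 1.58. In KDR against NT ADAMTS1 rose by 1.95 and ABHD2 by 0.22, while CHRNA2 and BMPR1B had fold changes of 0.28 and 0.16 with no call. ADAMTS1 had 143, 139.7 and 139 CPM in KDR, 11.6, 12.9 and 10.3 CPM in KD2 and 39.7, 34.2 and 34.9 CPM in NT, the same order of groups as TRPM8. The scaffold gene IQGAP2 went the other way, with 19.9 to 22.2 CPM in KDR, 90.3 to 95.9 CPM in KD2 and 22.0 to 25.1 CPM in NT.

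Most androgen-induced genes of cholesterol and fatty acid metabolism were higher in KD2 than in NT. Of 12 such genes 9 rose and 2 fell in KD2 against NT, with a median log2 fold change of 0.95, where 17.8% of all genes tested rose and 18.2% fell. All 12 rose in KDR against NT, with a median of 0.90, where 13% of all genes rose. The difference between these genes and the members was not tested. SREBF1, a master regulator of lipid genes, SCD, a desaturase, INSIG1, a sterol sensor partner, and FADS1, another desaturase, rose in KD2 by 1.94, 1.28, 1.70 and 1.72 and in KDR against NT by 2.26, 1.62, 1.90 and 1.26. Of the members that act on lipids, ACSL3 lay above NT in both KD2 and KDR, while MBOAT2 and PLPP1 fell in KD2 and were not called in KDR against NT.

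Most genes that glucocorticoids also induce fell in KD2. Of 10 such genes 7 fell and 1 rose in KD2, where 18.2% of all genes fell and 17.8% rose, and 8 rose and 1 fell in KDR against KD2, where 15.3% rose and 17.1% fell. Against NT, 4 of them rose, 1 fell and 5 were not called in KDR, where 13% of all genes rose and 14.5% fell. Of the 10, 4 (FKBP5, TSC22D3, SGK1 and ZBTB16) are themselves members. FKBP5, SGK1 and ZBTB16 are among the 7 that fell in KD2, so these counts are not separate from those of the members. Of the others, KLF9 fell by 1.19 in KD2 and was not called in KDR against NT (-0.15), MT2A fell by 1.10 in KD2 and by 0.87 in KDR against NT, and ERRFI1 rose by 0.20 in KD2. Of 7 genes known to be repressed by androgens 4 were tested, of which 1 rose and 1 fell in KD2. These are too few to set against the 17.8% of all genes that rose and the 18.2% that fell. FOLH1, which encodes prostate-specific membrane antigen, had 1049, 1079.8 and 1088 CPM in KDR, 291, 292 and 286 CPM in KD2, 1485, 1548 and 1533 CPM in KD1 and 1550.1, 1406 and 1517 CPM in NT. FOLH1 thus fell by 2.36 in KD2 and by 0.48 in KDR against NT, the same direction as the androgen-induced genes in KD2 (edgeR adjusted p = 9.51e-21 and 2.26e-08), while MET rose by 1.50 in KD2 at 1.35 to 1.76 CPM.

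**Figure D4:**
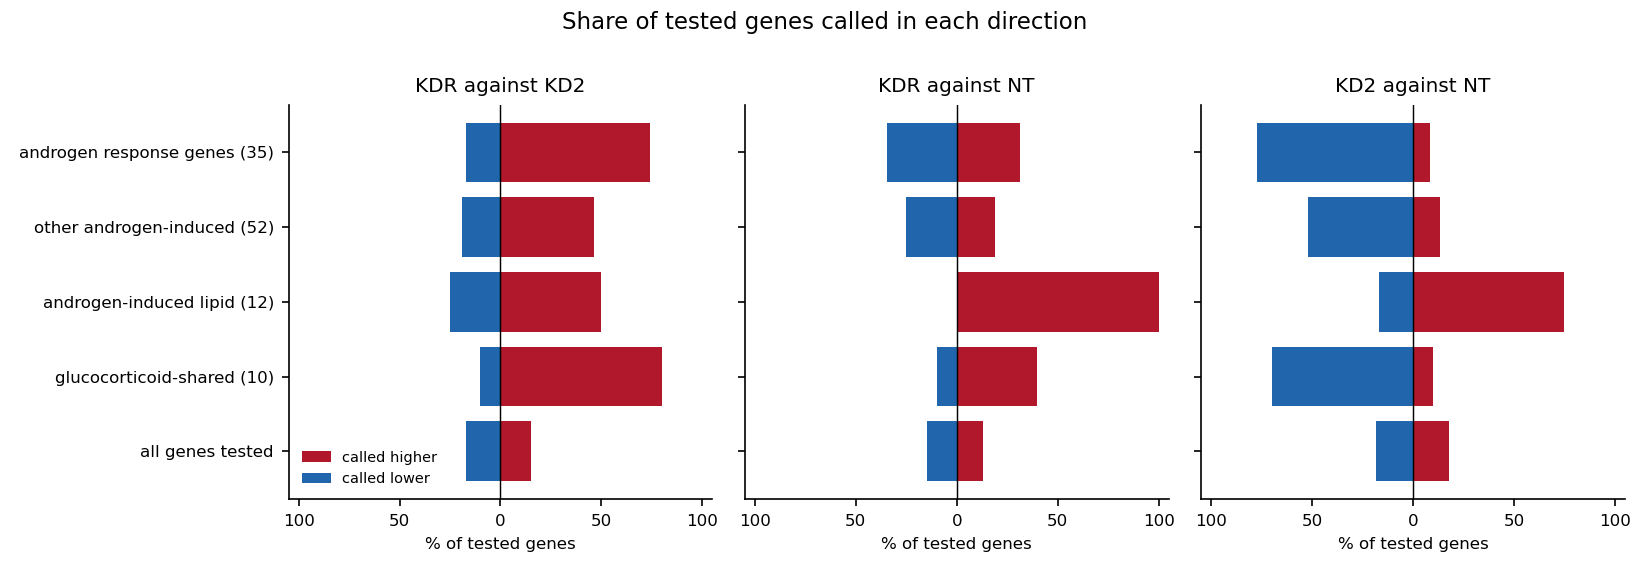
Percentage of the tested genes of each of 4 lists, and of all genes tested, that were called higher (right, red) or lower (left, blue) in KDR against KD2, KDR against NT and KD2 against NT; numbers in brackets are tested genes. In KD2 against NT 77.1% of the androgen response genes were called lower against 18.2% of all genes, while 75% of the androgen-induced lipid genes were called higher.

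Markers of proliferation moved with the same groups. All 6 of these markers rose in KD2 against NT, where 17.8% of all genes tested rose. All 6 fell in KDR against KD2, where 17.1% of all genes fell. In KDR against NT 5 rose and 1 was not called, where 13% of all genes rose. The summed level of the markers was 273 to 276 CPM in KDR, 491 to 512 CPM in KD2, 176 to 186 CPM in KD1 and 176 to 190.2 CPM in NT. MKI67 alone had 48.1, 48.3 and 47.5 CPM in KDR, 97.7, 103 and 99.2 CPM in KD2 and 20.7, 21.8 and 22.9 CPM in NT. The KDR libraries thus lay between KD2 and NT for the summed proliferation markers and for MKI67. The part of these differences in the levels of the androgen response genes was not tested. Summed markers of immune cells, endothelium and fibroblasts were at most 0.859, 0.707 and 5.12 CPM in any library, and those of neuroendocrine cells 3.93 to 4.39 CPM in KDR, 7.95 to 9.56 CPM in KD2 and 5.59 to 7.16 CPM in NT.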

How the data were processed

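The authors deposited 1 table of raw counts per gene for each of 12 libraries. Per the file headers, featureCounts 1.6.4 summed exons by gene (Ensembl 111, GRCh38) and was given no setting for strand, read pairs or multiple alignments. Both ends of a pair could therefore add to a gene, and reads in exons of more than 1 gene were dropped. FastQC, cutadapt and HISAT2 stand in the submitters' processing notes (versions: not given in the sources used here). Odd values made up 40.2% to 46.4% of counts between 1 and 20.

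Here the counts were tested with edgeR 4.0.16 (R 4.3.3): genes kept by filterByExpr (19373), TMM scaling, 1 quasi-likelihood fit of 12 libraries by group alone, Benjamini-Hochberg adjustment over all genes tested, and calls at 0.05. CPM are per 1e+06 scaled counts. Intervals are at 95% and cover the spread between libraries, estimated for each gene over all groups together. NT varied more than the other groups (15.7% against 5.53% to 7.17%), so intervals and p-values against NT may be too narrow. In a fit of only the groups compared, 2000 genes rose and 2170 fell in KDR against NT, against 2522 and 2815 in the main fit. In KDR against KD2 that fit gave 3745 and 4241, against 2972 and 3313. Alternatives were DESeq2 1.42.0, other scalings and filters, a fit of only the groups compared, a replicate block, a fold threshold (absolute log2 value 1) and leaving out each library. The code was tested on simulated data.

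Members and lists were chosen with earlier results of these data known. All 36 members are named, with values in every library for those called in KD2 with a 2-fold or larger change, or above NT in KDR. Beyond them the text names NR3C1, FOLH1, DHODH and up to 6 genes per list by adjusted p in KD2 against NT. Library values of KLK3, KLK4, KLK15, TPD52, ZBTB10, ADAMTS1, CDH1 and MKI67 were added after their values were seen. Symbols came from a gene name table (42338 of 63241 genes, 99.3% of counts). The identifier of HERC3 with counts was used. Some genes that this rule would name are not reported here.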

Additional observations from a re-analysis of the deposited data

How the results depend on the processing

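Over 20 alternatives, 28 of the 30 calls of members in KD2 against NT, 28 of 32 in KDR against KD2 and 17 of 23 in KDR against NT held in every one, the fold threshold aside, and no called value changed sign. With a minimum absolute log2 fold change of 1, the counts higher and lower were 1 and 7 in KD2 against NT, 9 and 0 in KDR against KD2, and 3 and 0 in KDR against NT. Leaving out 1 library gave 3 to 5 members higher in KD2 against NT (5 without NT replicate 2). Of members that fell in KD2, those not moved back in KDR (1, EAF2) numbered 2 with upper quartile scaling or total counts only, 0 with no filter or a fit of only the groups compared, and 0 to 1 with a library left out. Those further below NT (2) numbered 1 under the same scalings and that fit, and 1 to 3 with a library left out. Of members that rose in KD2, those not moved back (2) and those further above NT (0) numbered 1 each in the fit of only the groups compared, and 1 to 2 and 0 to 1 with a library left out. Those past NT on the other side (0) numbered 1 with DESeq2 and 0 to 2 with a library left out. The cause of these shifts was not tested.

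Uncalled values that changed sign stayed uncalled where they did so. Leaving out 1 library, the log2 fold change in KD2 against NT ran from -0.63 to 0.74 for HERC3, -0.075 to 0.17 for NDRG1 and -0.18 to 0.087 for ZBTB10. In KDR against KD2 it ran from -0.18 to 0.088 for EAF2, which was 0.012 with upper quartile scaling and 0.010 with total counts. In KDR against NT it ran from -0.049 to 0.048 for SLC45A3, -0.077 to 0.070 for C1orf116, -0.036 to 0.075 for MBOAT2 and -0.032 to 0.11 for AZGP1. With upper quartile scaling SLC45A3 was 0.021 and C1orf116 0.020, and with total counts they were 0.0085 each.

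Same-numbered libraries were not treated as paired, since the labels state no pairing. Of 18 such pairs from different groups, 1 had a residual correlation over 0.1 (range -0.16 to 0.25, over 11201 genes of at least 5 CPM on average). With 3 libraries per group, low correlations do not show that there was no pairing. With the replicate block, 27 members fell and 3 rose in KD2 against NT, 26 rose and 6 fell in KDR against KD2, and 11 rose and 11 fell in KDR against NT, where STK39 (-0.16, edgeR adjusted p = 0.0563) was no longer called.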
